A study of Mus musculus with 12 samples.

Results

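The protein components of the cytosolic ribosome were followed in fast muscle with and without AMPK gamma3. AMPK is a kinase that responds to low energy, and gamma3 is the regulatory subunit typical of its form in fast glycolytic fibres. A gene was taken when a probe set of the array named it alone under a symbol of the form Rpl or Rps with a number, Rplp0 to Rplp2, or Rpsa. Kinases of the ribosomal protein S6 family (Rps6k genes) and pseudogenes were left out. That gave 100 probe sets for 48 of the 12393 genes that the array names alone, 26 of the large subunit (Rpl) and 22 of the small subunit (Rps). Where a gene had several probe sets, its representative was chosen by the highest mean level over all 12 arrays, so the level is given as a description. The comparison of the genotypes was not used in choosing that probe set. The set of genes itself was chosen with earlier results of these data known.

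A ribosome joins a small subunit, which reads the messenger RNA, to a large subunit, which makes the peptide bond, and each needs its set of proteins in nearly equal numbers. In mammals the mRNAs of nearly all of these proteins belong to the TOP class, which start with a C inside a run of pyrimidines and whose translation is raised by the mTOR kinase and held back by the RNA-binding protein LARP1. AMPK is known to restrain mTOR signalling and, through the kinase of the elongation factor eEF2, the elongation step.

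The tissue was the white portion of the gastrocnemius, a calf muscle. Per the labels, 6 arrays came from male AMPK gamma3 knock-out mice (Prkag3 is the gene concerned) and 6 from wild type littermates, all C57BL/6 of generation F7, 14 weeks old and fasted overnight. The labels do not say how the gene was inactivated or in which cells it was missing, and Prkag3 was not analysed here, so the genotype labels were not checked against the targeted transcript, but a genotype note in the array record matched the label on 12 of 12 arrays. Each array is a biological replicate per the design text. Values are log2 of the intensities that the authors made with RMA, a method that makes the intensity distributions of all arrays alike, so these values cannot show a shift common to most transcripts. In whole muscle, fewer cells of a type and less RNA per cell cannot be told apart. As a check of the tissue, all 9 fast fibre markers (Myh4, Ckm, Actn3 and others) were measured, at mean levels of 12.04 to 14.31 on this scale.

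The start regions of the genes that carry the results are shown first, since the TOP class is defined there. They come from RefSeq (build GRCm38.p6) and hold 40 bases before to 20 bases from the annotated start of transcription onwards, 5′ to 3′ on the strand of the gene. Capitals mark the longest run of C and T in the window. Shown are the 6 genes whose genotypes did not overlap, Rpl35 with the largest change, Rpl7a with the longest run and a small change, and Rpl3l, a paralog of Rpl3 made in skeletal muscle and heart. Rpl4 is at chr9:64173347-64173406 (plus strand), Rplp2 at chr7:141447611-141447670 (plus), Rpl41 at chr10:128549149-128549208 (minus), Rps3 at chr7:99483690-99483749 (minus) and Rps18 at chr17:33955646-33955705 (minus). Rps28 is at chr17:33824543-33824602 (minus), Rpl35 at chr2:39005112-39005171 (minus), Rpl7a at chr2:26910767-26910826 (plus) and the first of both Rpl3l starts at chr17:24727786-24727845 (plus).
Rpl4: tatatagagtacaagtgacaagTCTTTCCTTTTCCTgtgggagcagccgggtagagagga
Rplp2: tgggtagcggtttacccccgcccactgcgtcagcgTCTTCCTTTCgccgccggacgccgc
Rpl41: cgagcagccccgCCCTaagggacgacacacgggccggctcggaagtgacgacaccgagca
Rps3: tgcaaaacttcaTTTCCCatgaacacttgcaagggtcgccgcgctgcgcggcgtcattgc
Rps18: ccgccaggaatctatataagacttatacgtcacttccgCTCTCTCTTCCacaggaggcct
Rps28: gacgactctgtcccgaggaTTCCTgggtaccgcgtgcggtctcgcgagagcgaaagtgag
Rpl35: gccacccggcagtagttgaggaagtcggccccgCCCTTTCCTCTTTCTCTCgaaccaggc
Rpl7a: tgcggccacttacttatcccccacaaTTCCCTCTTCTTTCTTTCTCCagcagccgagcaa
Rpl3l: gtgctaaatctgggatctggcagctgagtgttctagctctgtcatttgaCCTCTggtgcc

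In Rplp2, Rps18, Rpl35 and Rpl7a the run of C and T includes the annotated start base, over 10, 11, 18 and 21 bases. In Rpl4 a run of 14 bases begins 18 bases before the annotated start and ends before it, and in Rpl3l the longest run has 5 bases and lies behind the start. The starts used in this muscle were not measured. RefSeq starts were at hand for 42 of the 48 genes, 50 start regions in all, with several starts for 7 genes. A start base inside a run of at least 5 C or T was found in 13 of these 50 (26%), against 10.1% of all 32851 promoters of the table, and a run of at least 8 within the 60-base window in 26 of 50 (52%), against 24.2%. Over the whole table entries, 250 bases before to 50 after the start and both strands, the letters CCGGAAG, the core bound by ETS factors such as GABP, stood in 42% of the members' promoters and 8.86% of all promoters. The YY1 core AAGATGG stood in 14% of the members' and 6.34% of all promoters, the GC box GGGCGG in 52% and 35.7% of them, and the letters TATAAA in 12% and 13.6%. The first pair of motifs can share the letters AAG, and a match is a description of the letters, not a site. For a start base in a run, for a long run and for CCGGAAG, genes with and without the feature were set side by side. The difference in change was not tested. The median change was 0.085 in the 13 genes with a start base in a run of at least 5 and 0.086 in the 29 without. It was 0.085 in the 25 genes with a run of at least 8 and 0.087 in the 17 without. For CCGGAAG it was 0.087 in the 21 genes with it and 0.085 in the 21 without.

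Ribosomal protein genes of both subunits lay slightly higher in knockout than in wild type muscle. The mean was higher in knockout for 44 of the 48 genes, 24 of 26 in the large and 20 of 22 in the small subunit, where 47.1% of all tested probe sets had a change above 0. The differences were small: the median change, knockout minus wild type on the log2 scale, was 0.086 over the 48 genes, 0.082 over the large subunit and 0.093 over the small subunit, beside -0.0047 over all 22626 tested probe sets. No gene passed an adjusted p of 0.05 (limma, Benjamini-Hochberg over all probe sets; smallest adjusted p 0.564), a threshold that 0.0133% of all probe sets passed, all of them lower in knockout. At an unadjusted p below 0.05, 14 of the 48 genes were higher in knockout and 0 lower, 7 in each subunit, where 3.35% of all probe sets were higher and 2.69% lower. Bright probe sets in general had larger shares higher than all probe sets did, and their counts are given further below. The 4 genes with a lower mean in knockout were Rpl12, Rpl39 (-0.022 ± 0.051), Rps4l and Rps27l. In 6 genes every knockout array lay above every wild type array, as in 0.243% of all probe sets. The genes are not independent of each other, since within a genotype the levels of the 36 brighter ones (mean above 10) correlated at a median Pearson r of 0.44 over 630 gene pairs on the same 12 arrays, so these counts carry no test of their own.

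**Figure D1:**
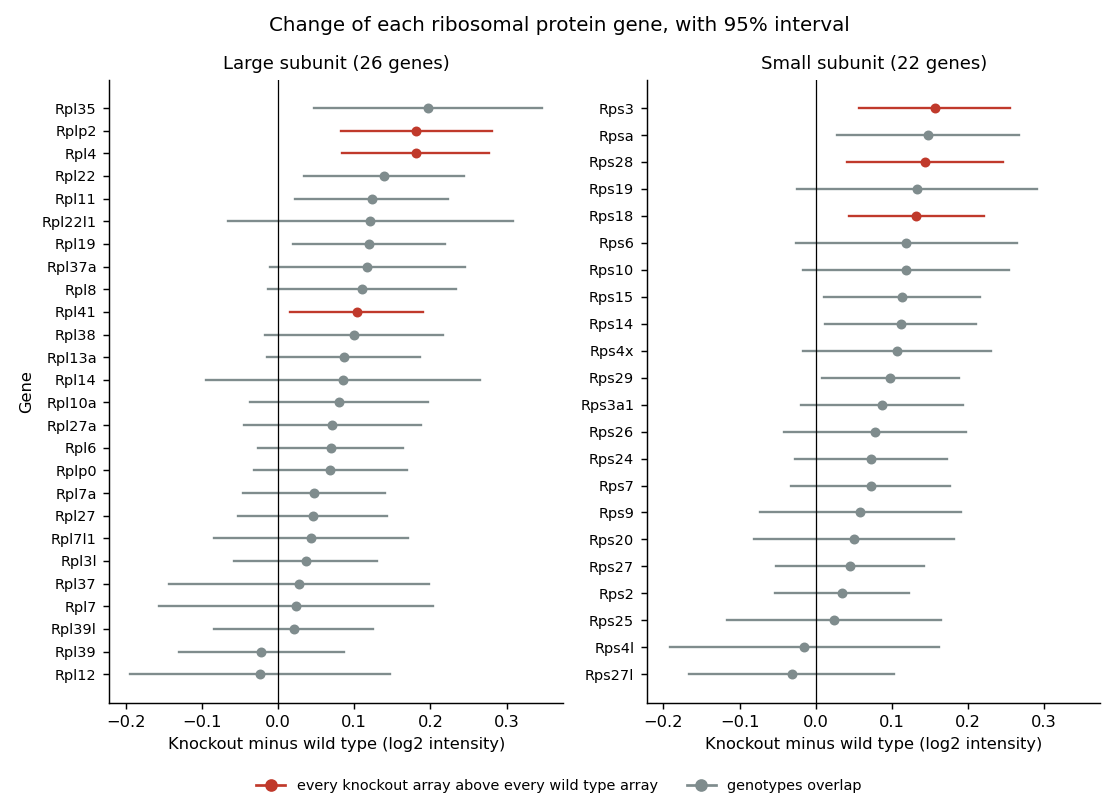
Change of each of the 26 large-subunit and 22 small-subunit genes, as the difference of the mean log2 intensity of 6 knockout minus 6 wild type arrays (point) with its 95% interval from limma (line). Points right of 0 are higher in knockout, as 44 of 48 are, and the red ones (Rpl4, Rplp2, Rpl41, Rps3, Rps18, Rps28) had no overlap of the genotypes.

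The level of a whole subunit on each array was taken as the mean over its genes after each gene was centred on its own mean over all arrays. For the large subunit it had its lowest, median and highest value at -0.0052, 0.029 and 0.14 in knockout and at -0.080, -0.045 and 0.00089 in wild type. All 6 knockout arrays lay above the wild type median and 4 lay above every wild type array, so the genotypes overlapped by a small margin. For the small subunit these values were -0.052, 0.045 and 0.15 in knockout and -0.079, -0.053 and 0.024 in wild type, again with 4 knockout arrays above all wild type arrays. Knockout replicate 5 was the highest array for both subunits, wild type replicate 5 the highest of its genotype, and knockout replicate 2 the lowest of the knockouts.

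The subunits moved together. The difference between the genotypes was 0.083 for the large and 0.084 for the small subunit, and the large minus small level differed by -0.0017 between the genotypes, against SDs over arrays of 0.024 in knockout and 0.021 in wild type. The array with the widest gap between the subunits was knockout replicate 2, at 0.047 in favour of the large subunit, and wild type replicate 3 came next at 0.039. The balance between the subunits did not differ beyond the spread of the arrays.

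**Figure D2:**
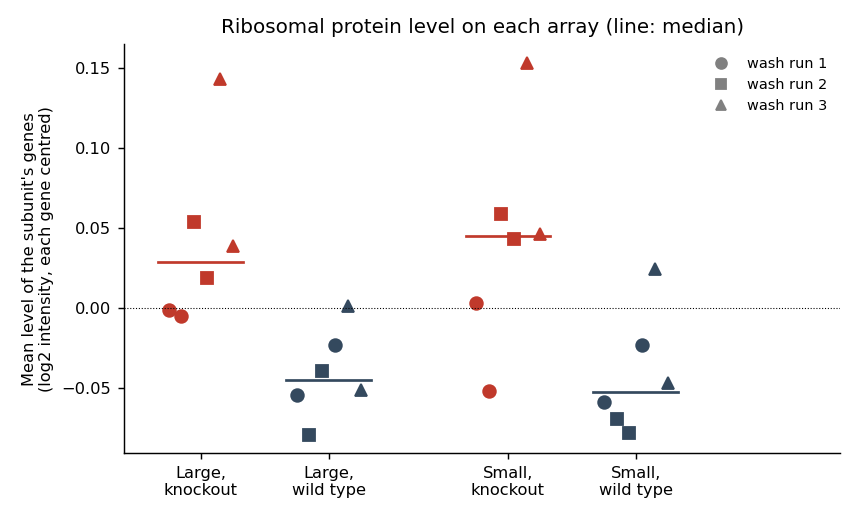
Mean level of the large-subunit and small-subunit genes on each array (y axis, log2 intensity with each gene centred on its mean), knockout left of wild type, with the median of 6 arrays as a line and the wash run as the symbol. The 4 highest knockout arrays of each subunit lie above all wild type arrays, and both knockout arrays of wash run 1 lie within the wild type range.

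The fluidics part of the array records gives each array a time, in a field named as the hybridization date. Arrays whose times lay within 30 minutes are called a wash run here, a name that the records do not use. There were 3 such runs, with 2 knockout and 2 wild type arrays in each, and the difference was not of one size in them. In run 1 the median change was 0.032 for the large and -0.0031 for the small subunit, with 28 of 48 genes higher in knockout (49.6% of all probe sets were). The small-subunit level, a mean over genes, was still higher in knockout by 0.017 in that run. In run 2 it was 0.096 for the large and 0.12 for the small subunit, with 43 genes higher (47.5% of all probe sets). In run 3 it was 0.13 for both, with 44 genes higher (51.7% of all probe sets). Over all probe sets the median change lay between -0.0079 and 0.0039 in the runs. In run 1 the median and the mean of the small-subunit genes thus differed in sign, both close to 0. In all 3 runs 23 of the 48 genes were higher in knockout, as were 12.7% of all probe sets. With 2 arrays a side the runs differ by as much as single arrays do, and whether the change differed between runs was not tested. By the cage letter in the array records, the level over all 48 genes was higher in knockout by 0.10 in cage A, 0.075 in cage B and 0.048 in cage C, each with both genotypes. Knockout and wild type arrays of the same replicate number shared a cage letter in 6 of 6 cases, and this level was higher in the knockout array for all 6 numbers, by 0.048 to 0.14. The labels give the number no meaning, so whether these are matched pairs is not known, and numbers 2 and 4 join arrays of different wash runs.

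**Figure D3:**
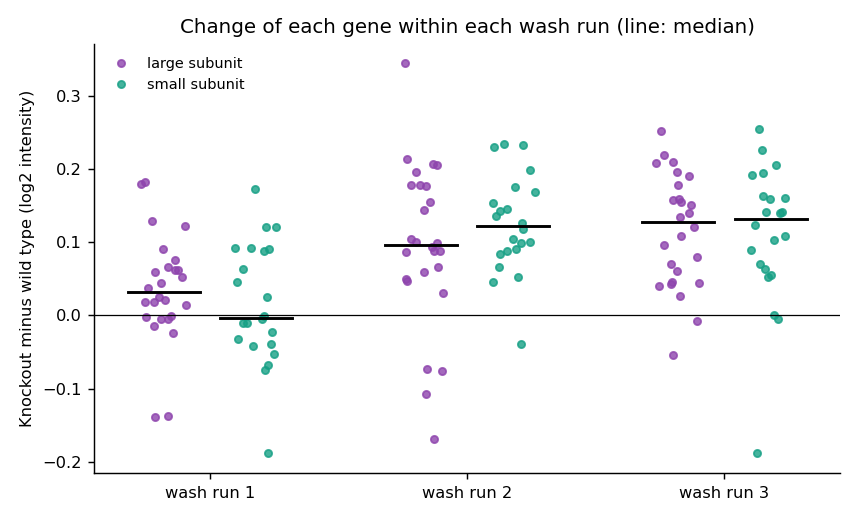
Change of each gene (points, knockout minus wild type, log2 intensity, 2 against 2 arrays) within each of the 3 wash runs, large subunit left and small subunit right of each pair, with the median as a line. Small-subunit genes spread evenly around 0 in run 1 (median -0.0031) and lie mostly above it in runs 2 and 3.

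Among the large-subunit proteins, Rpl4 and Rplp2 had the smallest p. Rpl4, a core protein that lines the exit tunnel of the nascent chain, ranged over 12.51, 12.59 and 12.60 (lowest, median, highest) in knockout and 12.28, 12.40 and 12.48 in wild type. The genotypes did not overlap. The change was 0.18 ± 0.046 (SE, 6 against 6 arrays), which is 13.3% (limma, adjusted p = 0.564), and it was 0.18, 0.21 and 0.15 in wash runs 1, 2 and 3. Rplp2, an acidic protein of the stalk that recruits elongation factors, measured 12.14, 12.19 and 12.32 in knockout and 11.95, 12.03 and 12.08 in wild type, also without overlap. Its change was 0.18 ± 0.047 (adjusted p = 0.564). Rpl41, one of the shortest proteins known, measured 12.49, 12.56 and 12.60 in knockout and 12.42, 12.45 and 12.47 in wild type. All 6 wild type arrays of Rpl41 were closely spaced and below the lowest knockout array, and the change was 0.10 ± 0.041 (adjusted p = 0.801). It was 0.060 under a further quantile normalization and 0.062 in its probe set without the _x_at ending, a dim one.

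Rplp0, the base of the same stalk, did not separate the genotypes as Rplp2 did. It measured 12.07, 12.14 and 12.18 in knockout and 11.98, 12.06 and 12.16 in wild type, with a change of 0.069 ± 0.048 (adjusted p = 0.904) that was 0.032 under a further quantile normalization, and the difference between the stalk genes was not tested. Rplp1, the partner of Rplp2, was not analysed here.

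**Figure D4:**
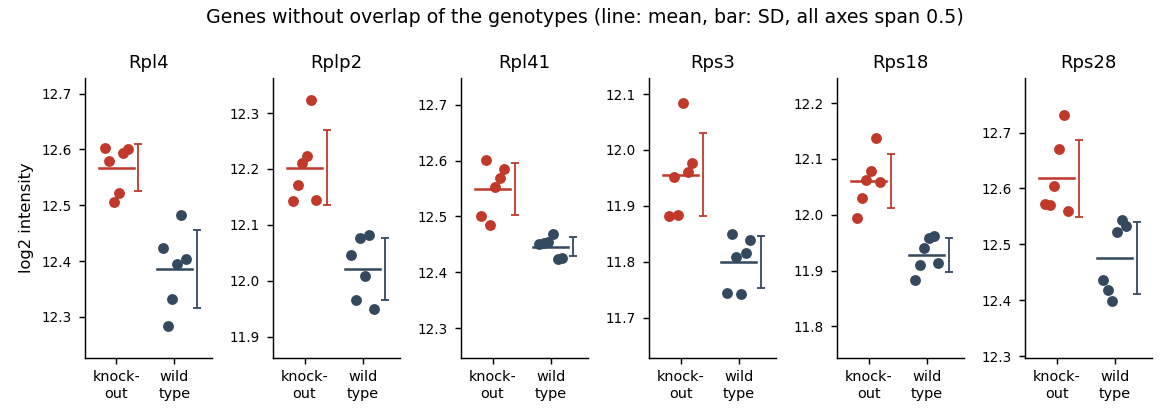
log2 intensity (y axis, each panel 0.5 wide) of the 6 genes whose genotypes did not overlap, knockout left of wild type, 6 arrays each, with the mean as a line and the SD as a bar. In each panel the lowest knockout array lies above the highest wild type array, by the smallest margin in Rpl41 and Rps28.

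Rpl35, which sits near the mouth of the exit tunnel, had the largest change of all 48 genes, 0.20 ± 0.071, or 14.6%. Its arrays spread widely, over 11.50, 11.65 and 11.88 in knockout and 11.31, 11.46 and 11.63 in wild type, so the genotypes overlapped (adjusted p = 0.781). The change was -0.0045, 0.34 and 0.25 in wash runs 1, 2 and 3, so it was near 0 in the first run, and it was 0.066 in the brightest probe set without the _x_at ending. Rpl22, an RNA-binding protein of the large subunit that is dispensable for viability in mice, measured 9.57, 9.75 and 9.79 in knockout and 9.51, 9.60 and 9.65 in wild type. Its change was 0.14 ± 0.050 (adjusted p = 0.781), and 5 of 6 knockout arrays lay above every wild type array.

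Rpl11, which with the 5S RNA can bind Mdm2 and so stabilise p53, had a change of 0.12 ± 0.048 (adjusted p = 0.783). Its arrays lay at 10.45, 10.60 and 10.65 in knockout and 10.37, 10.48 and 10.52 in wild type. Rpl19, which reaches across to the small subunit, had a change of 0.12 ± 0.047 (adjusted p = 0.801) at 11.51, 11.60 and 11.74 in knockout and 11.44, 11.49 and 11.55 in wild type. In both genes the genotypes overlapped.

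Of the small-subunit proteins, Rps3, which lies at the entry of the mRNA channel and also has a role in DNA repair, had the smallest p. It measured 11.88, 11.95 and 12.08 in knockout and 11.74, 11.81 and 11.85 in wild type, without overlap. The change was 0.16 ± 0.047, or 11.4% (adjusted p = 0.707), and it was 0.17, 0.15 and 0.14 in the 3 wash runs. Rps3 and Rpl4 were thus higher by 0.14 or more in every run. Rps18, a protein of the head of the small subunit, measured 11.99, 12.06 and 12.14 in knockout and 11.88, 11.93 and 11.96 in wild type, and its change was 0.13 ± 0.042 (adjusted p = 0.715), or 0.053 as the mean of its 6 probe sets. Rps28, which borders the mRNA exit, measured 12.56, 12.59 and 12.73 in knockout and 12.40, 12.48 and 12.54 in wild type, and its change was 0.14 ± 0.048 (adjusted p = 0.772). The genotypes of Rps18 and Rps28 did not overlap either.

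Rpsa, also known as the precursor of the laminin receptor, had a change of 0.15 ± 0.057 (adjusted p = 0.783). Its arrays lay at 11.35, 11.46 and 11.62 in knockout and at 11.24, 11.34 and 11.42 in wild type, and they overlapped. Rps14, whose loss from 1 allele underlies the anaemia of the human 5q- syndrome, lay at 12.57, 12.61 and 12.74 in knockout and 12.46, 12.51 and 12.62 in wild type, with a change of 0.11 ± 0.047 (adjusted p = 0.810). Rps15, which is needed for the export of the small subunit from the nucleus, had a change of 0.11 ± 0.049 (adjusted p = 0.812). Rps29, mutated in some human families with Diamond-Blackfan anaemia, overlapped by 1 pair of nearly equal arrays, the lowest knockout at 12.51 and the highest wild type at 12.52, and had a change of 0.098 ± 0.043 (adjusted p = 0.812) that was 0.065 under a further quantile normalization. In each of these 4 genes all 6 knockout arrays lay above the wild type median. Rps6, the substrate of the S6 kinases downstream of mTOR, was named alone only by dim probe sets. It lay at 7.20, 7.43 and 7.67 in knockout and 7.24, 7.34 and 7.45 in wild type, with a change of 0.12 ± 0.069 (adjusted p = 0.877), which was 0.077 without knockout replicate 4 and 0.054 as the mean of both its probe sets.

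The levels that the array reported ranged from a mean of 4.31 to 12.58, and a level here also depends on the probe set, so levels are not compared between genes as amounts of mRNA. The brightest of the large subunit were Rpl41 at 12.50, Rpl4 at 12.48 and Rpl7a at 12.40, and of the small subunit Rps14 at 12.58, Rps28 at 12.55 and Rps29 at 12.51. Rpl7a had a change of 0.047 ± 0.044 (adjusted p = 0.939), against 0.18 for Rpl4 at the same brightness. The dimmest were Rpl39l at 4.31, Rpl14 at 5.56 and Rpl12 at 6.78 in the large subunit, and Rps4l at 6.55, Rps25 at 7.30 and Rps6 at 7.40 in the small. Rpl14 had a change of 0.085 ± 0.085 (adjusted p = 0.946), which ran from 0.052 to 0.14 when 1 array was left out, and Rpl12, a protein at the base of the stalk, -0.024 ± 0.081 (adjusted p = 0.985). Rps25, a small-subunit protein on which some viral mRNAs depend, differed by 0.024 ± 0.067 (adjusted p = 0.982). RMA is known to draw the differences of dim probe sets towards 0, and its part in these changes was not tested.

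Paralogs can replace the main form of a protein in some tissues. The 6 with an l or l1 ending had a median change of 0.028, with 4 higher and 2 lower in knockout. Rpl3l was at 11.51, 11.55 and 11.65 in knockout and at 11.44, 11.55 and 11.58 in wild type, with equal medians and a change of 0.036 ± 0.045 (adjusted p = 0.957), or 0.0090 under a further quantile normalization and 0.017 without wild type replicate 2. Its 95% interval, -0.058 to 0.13, includes the median change of the large subunit, so the muscle form cannot be said to differ from the rest. Rpl22l1, a paralog that Rpl22 is known to hold down in mouse cells, was at 10.17, 10.42 and 10.69 in knockout and 10.09, 10.29 and 10.60 in wild type, with a change of 0.12 ± 0.089 (adjusted p = 0.909). Leaving out knockout replicate 5 gave 0.069, and leaving out wild type replicate 2 gave 0.077. Rpl7l1 differed by 0.043 ± 0.060, and Rpl39l, found mainly in testis, by 0.020 ± 0.050. Rps27l, a paralog induced by p53, was at 10.69, 10.82 and 11.05 in knockout and 10.71, 10.88 and 10.96 in wild type, with a change of -0.031 ± 0.064 (adjusted p = 0.976). It was the only one of the 36 genes above a level of 10 with a lower mean in knockout. Rps4l differed by -0.015 ± 0.084, while Rps4x, the X-linked main form, differed by 0.11 ± 0.059 (adjusted p = 0.876), or by 0.063 as the mean of both its probe sets. Without Rps27l and Rps4l, all 20 small-subunit genes had a higher mean in knockout, with a median change of 0.10.

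Several probe sets read the same gene in 23 cases. All probe sets of the gene were higher in knockout in 14 of them, the directions were mixed in 9, and in 0 were all lower. Of the 100 probe sets 85 were higher in knockout, where 47.1% of all tested probe sets were. At an unadjusted p below 0.05, 31 were higher (3.35% of all probe sets) and 1 was lower (2.69% of all). That one reads Rps24, a small-subunit protein, and lay at a change of -0.13 ± 0.052 (adjusted p = 0.801), while the 5 other probe sets of Rps24 ran from -0.025 to 0.092. The second probe set of Rpl22 had the smallest p of the 100: it lay at 8.83, 8.91 and 9.07 in knockout and 8.61, 8.67 and 8.69 in wild type, without overlap, with a change of 0.27 ± 0.048, or 20.4% (limma, adjusted p = 0.154). It was dimmer than the chosen probe set, whose change was 0.14. Rpl35 had 6 probe sets, 5 of them at a change between 0.066 and 0.24 and the dimmest at -0.013.

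In Rps18 the direction differed between bright and dim probe sets. It had 3 probe sets above a level of 11 with changes of 0.13, 0.12 and 0.18, and 3 below 7 with changes of -0.041, -0.0056 and -0.068. Rps10, a small-subunit protein also mutated in human Diamond-Blackfan anaemia, had 5 probe sets with changes between 0.065 and 0.19 and the dimmest at -0.055. Rps9 had changes of 0.058, 0.20 and -0.12 from its brightest to its dimmest probe set. By the ending that tells how specific a probe set is, 28 of 28 ending in _a_at were higher in knockout, 38 of 40 in _x_at, 2 of 2 in _s_at and 17 of 30 in _at, and the last kind had a median level of 7.24. Probe sets with the _x_at or _s_at ending may also bind other transcripts, and ribosomal protein genes have many processed pseudogenes, so signal shared with such copies cannot be told apart. Genes represented by an _x_at or _s_at probe set (14) and by the other kinds (34) had median changes of 0.085 and 0.086.

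Bright probe sets in general lay somewhat higher in knockout. Of the 36 genes above a level of 10, 35 were higher in knockout, with a median change of 0.10. Of the 12 at or below 10, 9 were higher, with a median of 0.035. The 1337 other probe sets above 10 that name no ribosomal protein had a median change of 0.022, and 61.6% of them were higher in knockout. Their median level was 10.73, below the 11.74 of the 36 genes, so the sets are not matched in brightness. At an unadjusted p below 0.05, 103 of these 1337 were higher and 45 lower, beside 13 higher and 0 lower of the 36 genes. Every knockout array lay above every wild type array in 8 of the 1337 and in 6 of the 36. A further quantile normalization of the arrays brought the medians to 0.062 for the large and 0.067 for the small subunit, and left 8 genes at an unadjusted p below 0.05. The share of all probe sets at such a p was not taken after that normalization. The part of brightness in the difference was not tested beyond these values.

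**Figure D5:**
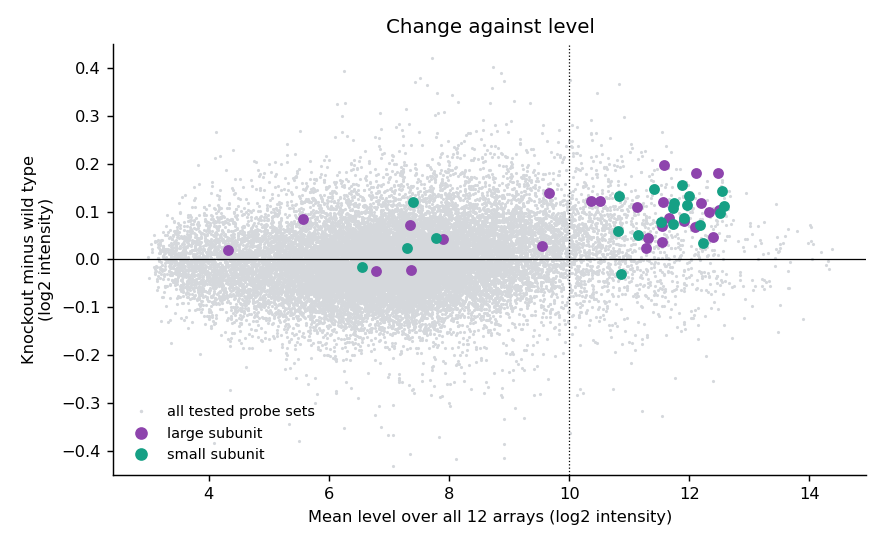
Change (y axis, knockout minus wild type, log2 intensity, limited to 0.45 either way) against mean level over 12 arrays (x axis, log2 intensity) of the large-subunit and small-subunit genes and of all 22626 tested probe sets (grey). Right of the dotted line at 10, 35 of 36 ribosomal protein genes lie above 0, with a median of 0.10.

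Probe sets outside the chosen 100 gave the same direction. Another 102 probe sets name a ribosomal protein together with other genes. They name 42 ribosomal genes, 28 of them named nowhere else. The others of the 42 are among the 48, so these probe sets partly read the same genes on the same arrays. They were not used for any named gene. In 95 of the 102 the mean was higher in knockout, with a median change of 0.13, and 45 were higher at an unadjusted p below 0.05. Of all tested probe sets, 47.1% were higher and 3.35% were higher at such a p. The 102 had a median level of 10.84, and of the other probe sets above 10, 61.6% were higher. The mitochondrial ribosome, whose proteins come from the Mrpl and Mrps genes, is a separate set: of its 74 genes 38 were higher and 36 lower in knockout, with a median change of 0.0012. The median level was 11.55 for the cytosolic and 9.04 for the mitochondrial genes.

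Other mRNAs of the TOP class lay in the same direction. Of 18 such genes listed, 16 were measured and all 16 had a higher mean in knockout, with a median change of 0.070 and 4 at an unadjusted p below 0.05. Over all tested probe sets 47.1% were higher, and 3.35% were higher at such a p. The 16 genes had a median level of 10.57, and of the other probe sets above 10, 61.6% were higher. Eef2, the translocase of elongation and the target of eEF2 kinase, measured 12.50, 12.62 and 12.67 in knockout and 12.35, 12.46 and 12.51 in wild type, with a change of 0.15 ± 0.046 (adjusted p = 0.707). Only the lowest knockout array lay within the wild type range. Eef1b2, an exchange factor of the elongation factor eEF1A, had a change of 0.18 ± 0.060 (adjusted p = 0.765). Fau, which encodes a small-subunit protein fused to a ubiquitin-like protein, had a change of 0.12 ± 0.053 (adjusted p = 0.818).

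Genes that make or control ribosomes had smaller median changes, but they were also dimmer. The median level was 7.95 for assembly factors, 7.86 for RNA polymerase I and its factors and 8.69 for the regulators below. It was 11.55 for the 48 ribosomal protein genes, and the 12 of these at or below 10 had a median change of 0.035. The part of the level in this contrast was not tested. Of 26 measured assembly factors 19 were higher and 7 lower in knockout, with a median change of 0.022. Fbl, the methylase of ribosomal RNA, had a change of 0.11 ± 0.054 (adjusted p = 0.818) and Nop58, its partner in the same particle, 0.19 ± 0.089 (adjusted p = 0.818). For RNA polymerase I and its factors, 12 of 15 were higher and the median was 0.041. Taf1c, a subunit of its selectivity factor, had a change of 0.10 ± 0.055 and Polr1e, a subunit of the enzyme, -0.063 ± 0.050 (adjusted p = 0.865 and 0.920).

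Of 11 regulators of ribosomal protein synthesis 8 were higher, with a median change of 0.050. Eif4ebp2, a repressor of cap-dependent translation that mTOR inactivates, had a change of 0.12 ± 0.050 (adjusted p = 0.810), and Myc, which drives ribosome production, 0.11 ± 0.063 (adjusted p = 0.876). Factors that meet the nascent chain at the ribosome were higher in 8 of 9 cases with a median of 0.071. Srp9, part of the signal recognition particle, had a change of 0.14 ± 0.049 (adjusted p = 0.781) and Hspa14, a chaperone of the ribosome, 0.19 ± 0.076 (adjusted p = 0.801). None of these genes passed the threshold, and some stand in more than 1 list.

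Markers of the cells in the tissue were read in the same way. All 8 slow fibre markers had a lower mean in knockout, with a median change of -0.45, but their spread was wide: the log2 of their summed level ran from 11.03 to 12.75 in knockout and from 11.07 to 12.75 in wild type, and 0 of the 8 had an unadjusted p below 0.05. Fast fibre markers were higher in 5 and lower in 4 of 9, with a median of 0.031. Of the other cells, 7 of 10 macrophage and leukocyte markers were higher with a median of 0.012, 6 of 8 markers of satellite cells and regenerating fibres with 0.044, 3 of 4 adipocyte markers with 0.20 and 2 of 3 Schwann cell markers with 0.10. Endothelial and fibroblast markers were higher in 1 of 6 each, with medians of -0.068 and -0.050. The summed levels of the genotypes overlapped in every one of these lists, and their part in the ribosomal difference was not tested. As a sign of RNA quality, the 3′ over 5′ signal of the control probe sets for Actb and Gapdh (log2 ratio) ran from -0.22 to 0.0017 in knockout and from -0.18 to -0.096 in wild type, with medians of -0.15 and -0.14.

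By position, Rpl37a is the ribosomal gene nearest to Prkag3. It lies 18 measured genes before Prkag3 on chromosome 1 in the gene order of GRCm38.p6, and its change was 0.12 ± 0.061 (adjusted p = 0.858). The other member on that chromosome, Rpl7, is 177 measured genes away and differed by 0.024 ± 0.085. The 48 genes are spread over 17 chromosomes. Genes outside the 48 were ranked by how closely they followed Rpl22, by Pearson r over 12 arrays after each genotype was centred. The closest were Pes1 (0.899), a factor of large-subunit assembly, Snx19 (0.883), Vwf (0.874), Zfyve19 (0.872) and Ttc5 (0.864). These values are the top of the 12393 genes without the 48, and describe these arrays. Rpl22 in knockout replicate 1 lay at 9.57, against 9.74 to 9.79 in the other knockout arrays, and the part of that array in r was not tested.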

How the data were processed

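Total RNA of 12 muscles was measured on Affymetrix MOE430A arrays. The deposited values are intensities on a linear scale from RMA, as the submitters' processing notes name it; its version and a genome build are not given in the sources used here. The instrument record of each array, which holds other settings as text, gave the wash run, cage letter and fluidics module. Wash run is a name used here for arrays with hybridization times within 30 minutes. Of 22690 probe sets, 64 array controls were left out. A two-sided test of genotype, the only term, was made on log2 values with lmFit and eBayes of limma 3.58.1 (R 4.3.3) over 22626 probe sets, with Benjamini-Hochberg adjustment and a threshold of 0.05. limma was tested on simulated data. Gene names came from the platform annotation, updated through RefSeq's gene table; 1 gene is named by 20380 probe sets and several by 691, and 1555 are unnamed here. Array medians lay between 132.5 and 139.8 intensity units, array pairs correlated at 0.991 to 0.997, and 0 pairs were identical. Precision is limited by having 6 arrays a genotype.

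The members, the gene lists and the naming rule were chosen with earlier results of these data known. Named were genes past the threshold, the 6 smallest p, the 3 brightest and 3 dimmest genes of each subunit, paralogs, stalk proteins, Rpsa and Rps6, genes without overlap, 4 genes whose probe sets differed most, and 2 genes of each list on translation; Rpl37a and Rpl7 were named for their chromosome, and Rpl39 and Rps24 for their direction, after their values were seen. Of the cell marker lists only counts are given. Same-numbered arrays shared a cage letter in 6 of 6 cases, per the file headers, but the labels give the number no meaning and the arrays did not deviate together: the correlation of their deviations ran from -0.15 to 0.20 over 6 pairs and was over 0.1 in 2, so the number was not a term.

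Alternatives were the replicate number, wash run, module or cage as a block, array weights, centring, a robust prior with a trend, a second quantile normalization, leaving out probe sets dimmer than the median, averaging each gene's probe sets, no _x_at or _s_at probe sets, and each array left out. Each wash run alone and only genes above log2 10 were added after the data were seen. Scripts ran in Python 3.11.15 with pandas 2.3.3.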

Additional observations from a re-analysis of the deposited data

Results flagged for a closer look

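Of 64 groups of 6 arrays examined (29 named genes and 3 subunit levels in both genotypes), 4 held an array far from the others, and chance alone flags about 1 in 20 groups. Knockout replicate 1 had the lowest Rpl22 level of its genotype, 9.57 on the log2 scale, with the other 5 knockout arrays between 9.74 and 9.79. The same array had the lowest Rpl11 level, 10.45, with the others between 10.58 and 10.65. Wild type replicate 2 had the lowest Rpl3l level of its genotype, 11.44, with the others between 11.53 and 11.58. Knockout replicate 2 had the highest large minus small subunit level, 0.047, with the other knockout arrays between -0.025 and -0.0042.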

How the results depend on the processing

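Under the replicate number as a block, a fit of pairing by number, 44 of 48 genes were again higher in knockout and the medians were 0.082 and 0.093 for the large and small subunit. No gene passed the threshold, in either direction, under any of the 26 alternatives in which it was counted. The count of genes higher in knockout stayed between 38 and 45 except in wash run 1 alone, where it was 28. The count of 38 is out of the 43 genes that had a probe set without the _x_at or _s_at ending. With only probe sets above the median level it was 42 of 44. Leaving out 1 array gave medians of 0.061 to 0.097 for the large and 0.070 to 0.11 for the small subunit, 41 to 45 genes higher, and 10 to 18 at an unadjusted p below 0.05. A further quantile normalization brought that last count to 8, against 14. The share of all probe sets at such a p was not taken under these alternatives, so these counts have no background of their own. Alone, wash run 1 gave large and small medians of 0.032 and -0.0031, run 3 a large median of 0.13, and run 2 a large minus small difference of -0.030, beside -0.0017 over all arrays. The cause of these moves was not tested. Single genes were not counted in the fits of 1 wash run alone. Some named genes turned sign there, such as Rpl35 at -0.0045 and Rps6 at -0.068 in run 1. Over 29 named genes and the remaining alternatives, 644 of 661 values kept their direction. Of 6 uncalled genes the sign turned: Rpl39l to -0.012 under the module block; Rpl12 to 0.0020, 0.0049 and 0.035 without knockout replicate 3 or wild type replicates 1 or 2 (-0.072 to 0.035 over all arrays left out); Rps9 to -0.12 without _x_at and _s_at probe sets; Rps27l to 0.0014 under the module block, 0.032 with the mean of its probe sets and 0.050 without _x_at and _s_at probe sets; Rps25 to -0.015 and -0.0067 without knockout replicate 5 or wild type replicate 6 (-0.015 to 0.071); and Rps4l to 0.0034 under quantile normalization, 0.035 with array weights, 0.033 under the module block, and 0.025, 0.018, 0.035 and 0.0015 without knockout replicate 2 or wild type replicates 4, 5 or 6 (-0.070 to 0.035). Signal over background limits what can be said of the 12 genes at or below log2 10.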
